A study of Homo sapiens with 15 samples.

Results

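The change made by the drug dihydroergotamine (DHE) was set against the change made by the nuclear receptor NR4A1, gene by gene, in MOLM-14 cells. The measure was the log2 change with DHE over vehicle minus the log2 change with NR4A1 RNA over GFP RNA, and it was taken for all 14367 genes that reached 1 TPM in at least 2 of the 8 RNA-seq libraries, of 57964 entries in the deposited table. TPM gives a gene's share of the transcripts of its library, corrected for length. A positive difference means that a gene stood higher after DHE, relative to vehicle, than after NR4A1 RNA, relative to GFP RNA. The study used both treatments to ask which of the genes that respond to the drug also respond to the receptor, and the difference gives the genes on which they part.

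MOLM-14 is a human acute myeloid leukaemia (AML) line with a rearranged MLL gene and monocytic features. In the DHE group the cells received 10 uM DHE, and in the vehicle group the vehicle DMSO, each for 6 h. In the NR4A1 group the cells were electroporated with in vitro transcribed (IVT) NR4A1 RNA, and in the GFP group with GFP IVT RNA. Each RNA was given at 100 nM and followed by 6 h of culture. Each group had 2 libraries of total RNA depleted of ribosomal RNA, and no source says that these came from separate cultures, so a p-value measures the spread between libraries, which may be technical. The DHE and NR4A1 effects have no control in common. In bulk RNA, fewer cells of a kind and less RNA per cell cannot be told apart.

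DHE is an ergot alkaloid given for migraine that binds receptors for serotonin, dopamine and noradrenaline. NR4A1 is an orphan nuclear receptor encoded by an immediate early gene; it binds DNA as a monomer at the NBRE motif and acts as a tumour suppressor in myeloid cells. MYC drives the production of ribosomes, nucleotides and proteins, and in AML its transcription depends on super enhancers, dense clusters of enhancers rich in Mediator and BET proteins.

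GFP replicate 1 and DHE replicate 2 stood apart from the other libraries, and both enter the difference with a positive sign. Transcripts that resemble ribosomal DNA, such as MIR663A, made up 6.07% of the TPM in DHE replicate 2 and 24.5% in GFP replicate 1, against 0.571 to 2.14% in the other 6 libraries. Of all genes tested, 31.3% were higher in both of these libraries than in their partners and 30.6% lower in both. For that reason the counts of calls in the difference are given with and without them. NR4A1 itself, at 720 and 699 scaled TPM in the NR4A1 libraries (the introduced RNA included) and 2.80 and 2.79 in the GFP libraries, matched the labels, and it lay between 1.22 and 1.67 in the DHE and vehicle libraries, with the DHE values inside the range of vehicle. The 11 markers of MOLM-14 identity were all detected, but CSF1R (0.6 to 7.36 TPM) and ITGAM (1.34 to 2.00 TPM) were low. The 11 summed to 629 to 653 TPM with DHE, 612 to 619 with vehicle, 643 to 678 with NR4A1 RNA and 486 to 579 with GFP RNA. The markers of lymphocytes summed to at most 0.502 TPM and those of erythroid cells and megakaryocytes to at most 0.521 TPM. The epithelial and fibroblast markers summed to 18.0 to 22.1 TPM over the 8 libraries, of which the keratin KRT18 made up 14.2 to 19.1 TPM and KRT8 1.58 to 3.36 TPM.

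The drug moved many more genes than the receptor. Most genes called in the difference were called with DHE and not with NR4A1 RNA. Such genes can still have a smaller change with NR4A1 RNA, as UTP20 did (log2 change -0.45, limma adjusted p = 0.0093). With DHE, 1303 genes (9.07% of those tested) were called higher and 1457 (10.1%) lower, where a call needed over 1.5-fold and a limma adjusted p under 0.05. With NR4A1 RNA, 380 (2.64%) were called higher and 325 (2.26%) lower. Leaving out GFP replicate 1 and DHE replicate 2 gave 2838 genes called with DHE and 703 with NR4A1 RNA. The difference between the effects was called (limma adjusted p under 0.05) for 1153 genes as higher (8.03%) and for 1563 as lower (10.9%). These shares of all genes are to be set beside the counts of each gene list below. Of these 2716 genes, 1434 (52.8%) were called with DHE only, 190 (7.00%) with NR4A1 RNA only, 98 with both in the same direction and 30 with both in opposite directions. The remaining 964 (35.5%) were called in neither experiment by itself.

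Without GFP replicate 1 and DHE replicate 2, 764 of the 1153 genes and 1303 of the 1563 genes kept their call in the same direction. Among the genes called in neither experiment, 225 of 428 higher and 402 of 536 lower kept it, and 52.6% of the higher ones stood higher in both of these libraries than in their partners. Among the genes called with DHE only, 449 of 605 higher and 727 of 829 lower kept it. The counts also depended on single libraries of the other groups: leaving out vehicle replicate 1 gave 146 genes higher and 246 lower, and leaving out vehicle replicate 2 gave 198 and 304. Leaving out NR4A1 replicate 1 gave 232 and 375, and leaving out NR4A1 replicate 2 gave 167 and 287. For DHE replicate 2 the counts were 634 and 1008, and for GFP replicate 2 they were 1939 and 2318. In every one of the 8 fits that left out a library, 129 genes were called higher and 225 lower, and each gene given below with its 8 values and a call belongs to these unless a library is named beside it.

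**Figure D1:**
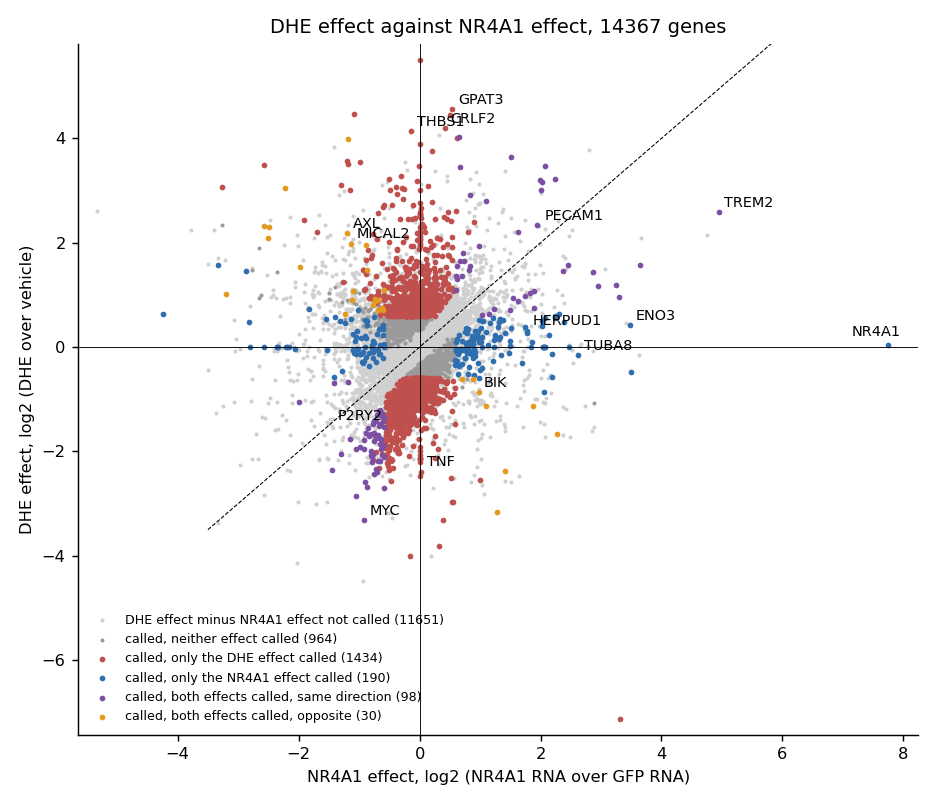
Each point is 1 of the 14367 genes, placed by its NR4A1 effect (x axis, log2 of NR4A1 RNA over GFP RNA) and its DHE effect (y axis, log2 of DHE over vehicle), and coloured by where it was called. Genes on the dashed diagonal changed alike, PECAM1 lies close to it, and the 1434 genes called with DHE only lie above and below the centre.

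**Figure D2:**
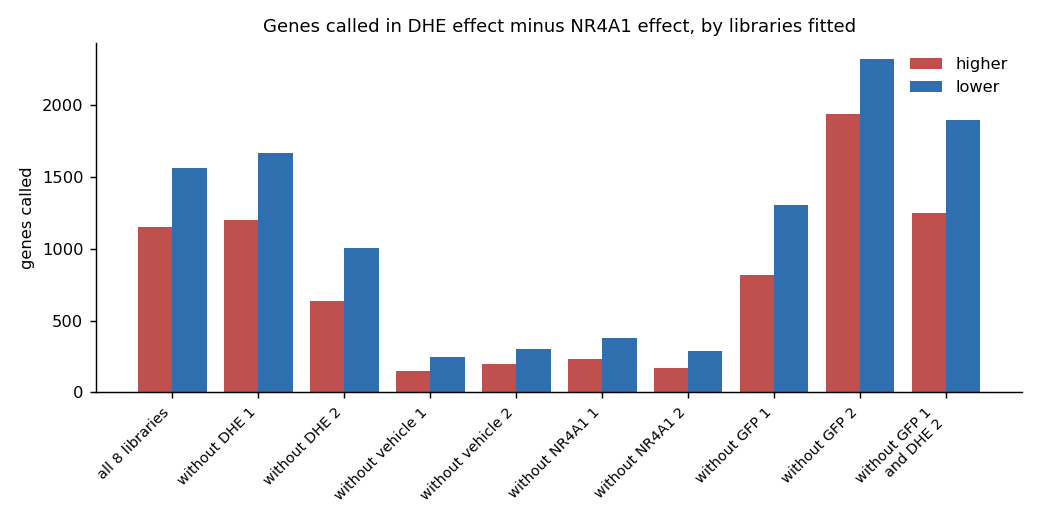
Bars give the number of genes called higher and lower for the DHE effect minus the NR4A1 effect with all 8 libraries, without each library in turn, and without GFP replicate 1 and DHE replicate 2 together. The counts were lowest without vehicle replicate 1 (146 and 246) and highest without GFP replicate 2 (1939 and 2318).

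How the calls were divided between higher and lower changed with 2 of the 4 other scalings tried. Among the 2716 calls 42.5% lay in the higher direction, against 26.8% with upper quartile scaling (728 higher and 1993 lower) and 56.9% with equal totals after leaving out the ribosomal RNA related and rDNA-like transcripts (1451 higher and 1097 lower). The share was 42.2% without rescaling (388 higher and 531 lower) and 42.3% with equal totals after leaving out the listed ribosomal RNA related transcripts alone (107 higher and 146 lower), where far fewer genes were called. The median difference of all genes was -0.13, 0.16, 0.00 and -0.17 on the log2 scale in these 4 scalings, in the order given, against 0.02 here. Fewer members of some gene lists were called with the last 2 scalings, for example 49 and 16 of the 76 nucleolar genes and 2 and 0 of the 28 heat shock and mitochondrial chaperones.

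The sharpest parting was of genes that the treatments moved in opposite directions. Such genes numbered 30: 22 were higher with DHE and lower with NR4A1 RNA, and 8 were lower with DHE and higher with NR4A1 RNA. Some of the 30 were small RNA entries with 0 TPM in every vehicle and NR4A1 library or in every DHE and GFP library. All 22 and 7 of the 8 were still called in the difference without GFP replicate 1 and DHE replicate 2, and 14 of the 22 and 5 of the 8 were called in each of the fits that left out a library.

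AXL encodes a receptor tyrosine kinase for GAS6 that marks poor prognosis and drug resistance in AML. It was measured at 15.7 and 15.7 scaled TPM with DHE, 3.02 and 3.12 with vehicle, 2.26 and 2.36 with NR4A1 RNA and 6.43 and 5.50 with GFP RNA. Both DHE libraries stood above all others, both NR4A1 libraries stood below all others, and the GFP libraries stood above the vehicle libraries. The log2 change was 2.18 with DHE and -1.20 with NR4A1 RNA, a difference of 3.38 (standard error 0.13, limma adjusted p = 9.5e-04). Between the controls AXL differed by 0.85 (GFP over vehicle, limma adjusted p = 0.059).

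MICAL2, an enzyme that oxidises and takes apart actin filaments, followed the same order as AXL. Its values were 29.3 and 37.7 scaled TPM with DHE, 7.99 and 8.12 with vehicle, 4.09 and 4.47 with NR4A1 RNA and 11.1 and 8.99 with GFP RNA, with no overlap within either experiment (difference 3.11, standard error 0.21, limma adjusted p = 0.0018). IQSEC3, an exchange factor for ARF GTPases, stood at 10.9 and 13.3 scaled TPM with DHE and below 1 in the other 6 libraries, at 0.217 and 0.375 with vehicle, 0.0358 and 0.0586 with NR4A1 RNA, and 0.764 and 0.721 with GFP RNA. Its difference of 5.17 (standard error 0.27, limma adjusted p = 0.0014) is on the log2(TPM + 0.5) scale, which understates the changes of such low values. CD70, the ligand of CD27 and a surface protein of AML blasts, also belonged to the 22, at 72.9 and 60.9 scaled TPM with DHE, 40.0 and 40.8 with vehicle, 35.0 and 34.1 with NR4A1 RNA and 49.9 and 56.3 with GFP RNA.

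BIK, a BH3-only protein that promotes apoptosis, ran the other way. It stood at 18.5 and 17.6 scaled TPM with DHE, 34.1 and 32.2 with vehicle, 64.3 and 64.4 with NR4A1 RNA and 33.2 and 31.7 with GFP RNA. The controls overlapped, and the treated libraries lay on either side of them (difference -1.84, standard error 0.09, limma adjusted p = 0.0014). GSAP, the gamma-secretase activating protein, had 0.853 and 1.27 scaled TPM with DHE, 3.23 and 2.60 with vehicle, 6.29 and 5.86 with NR4A1 RNA and 2.22 and 2.95 with GFP RNA (difference -2.23, standard error 0.27, limma adjusted p = 0.0070). AGMAT, a mitochondrial enzyme annotated as agmatinase, was measured at 2.41 and 2.28 scaled TPM with DHE, 3.72 and 3.93 with vehicle, 7.93 and 7.12 with NR4A1 RNA and 3.93 and 3.74 with GFP RNA, likewise with both controls between the treated groups.

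**Figure D3:**
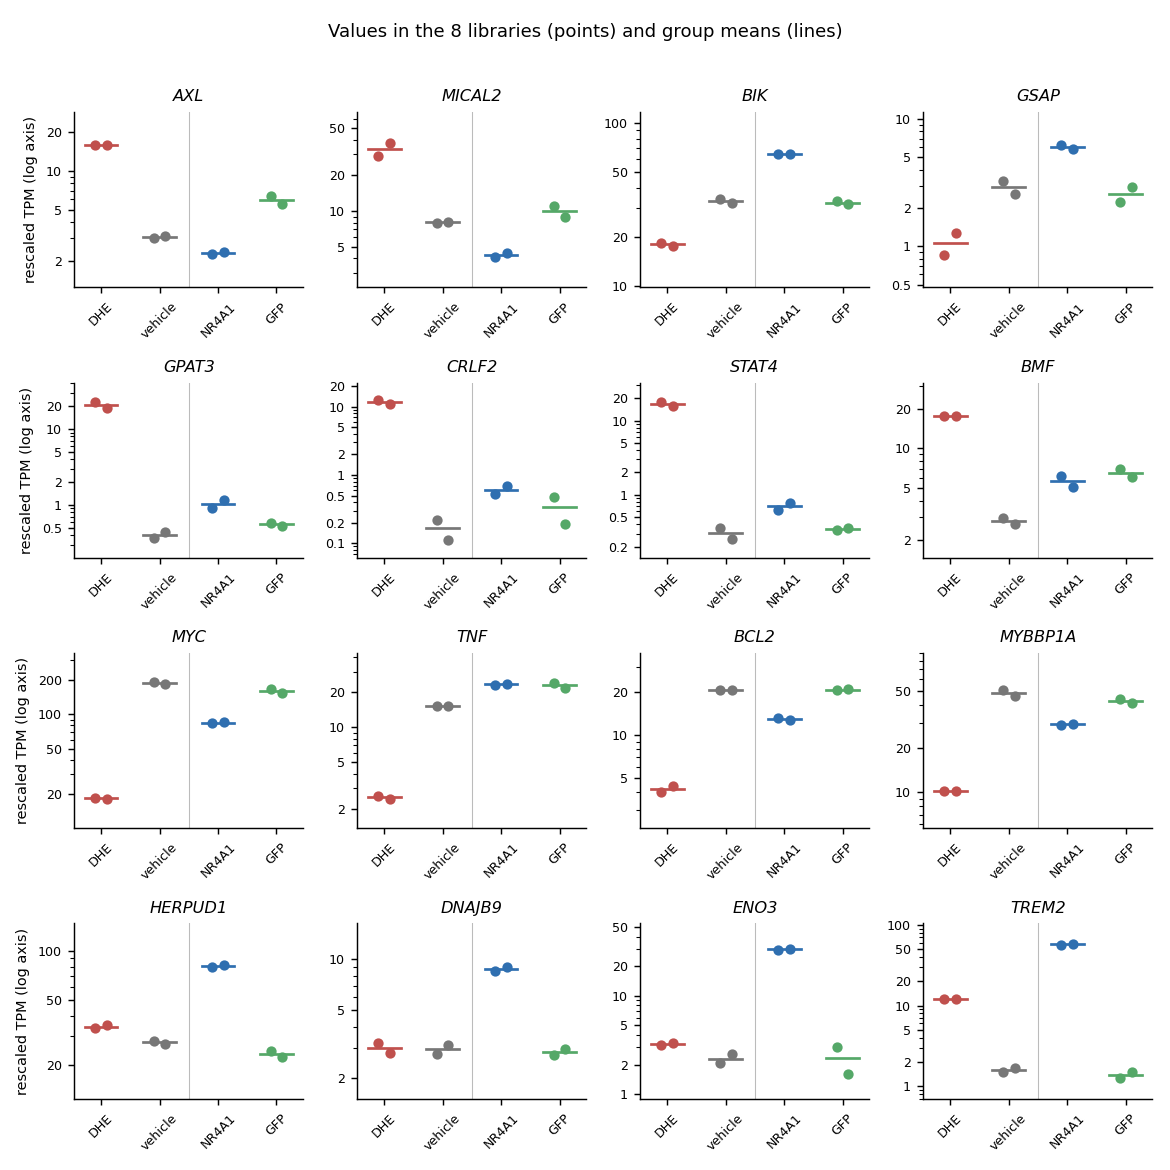
For 16 genes, points give the scaled TPM (log axis) in each of the 2 libraries of the DHE, vehicle, NR4A1 and GFP groups, and lines give the group means. AXL and MICAL2 were highest with DHE and lowest with NR4A1 RNA, BIK and GSAP were the reverse, and HERPUD1, DNAJB9 and ENO3 were high with NR4A1 RNA.

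Genes that rose with DHE and were not called with NR4A1 RNA included genes of lipid synthesis, signalling and the cell surface. GPAT3, an acyltransferase that starts triglyceride synthesis, stood at 22.7 and 19.0 scaled TPM with DHE, 0.362 and 0.445 with vehicle, 0.913 and 1.18 with NR4A1 RNA and 0.582 and 0.531 with GFP RNA. Only the DHE libraries exceeded 2 TPM. The difference was 4.01 (standard error 0.22, limma adjusted p = 0.0014). WARS, the cytosolic tryptophanyl-tRNA synthetase, stood out among its family: 1 of 37 aminoacyl-tRNA synthetases was called higher, WARS, and 14 were called lower, of which WARS and 11 of the 14 kept their call without GFP replicate 1 and DHE replicate 2. Without vehicle replicate 1, vehicle replicate 2 or NR4A1 replicate 2, 3 were called lower. It was measured at 491 and 417 scaled TPM with DHE, 81.3 and 81.7 with vehicle, 95.8 and 95.4 with NR4A1 RNA and 89.6 and 97.9 with GFP RNA (difference 2.44, standard error 0.13, limma adjusted p = 0.0014).

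Several genes of cAMP signalling, the second messenger pathway of many amine receptors, were in this class. Of 30 tested genes of that pathway, 7 were called higher and 2 lower in the difference, beside 8.03% and 10.9% of all genes, with a median of 0.40 beside 0.02, and 5 of the 7 and both lower calls were kept without GFP replicate 1 and DHE replicate 2. Over the fits that left out a library between 2 and 10 were called higher, fewest without vehicle replicate 1 or NR4A1 replicate 2. PKIB, an inhibitor of protein kinase A that was not on the list, stood at 42.1 and 41.9 scaled TPM with DHE, 2.78 and 2.50 with vehicle, 3.91 and 4.80 with NR4A1 RNA and 3.35 and 4.06 with GFP RNA (difference 3.55, standard error 0.18, limma adjusted p = 0.0014). CREM, a transcription factor of the cAMP response and a target of CREB, stood at 42.1 and 40.9 scaled TPM with DHE, 6.22 and 8.31 with vehicle, 9.08 and 8.54 with NR4A1 RNA and 6.38 and 8.33 with GFP RNA (difference 2.19). For both genes the DHE libraries stood far above the other 6, among which the groups lay close together. Of 28 listed aminergic receptors 4 were tested, and limma called 0 in the difference, with 1 lower at an unadjusted p under 0.05. In single experiments 1 was called lower with DHE, and 1 higher and 1 lower with NR4A1 RNA.

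PDE3A, a phosphodiesterase that breaks down cAMP, was called higher in both experiments and further with DHE. Its scaled TPM were 9.53 and 9.24 with DHE, 0.408 and 0.407 with vehicle, 1.79 and 1.89 with NR4A1 RNA and 1.04 and 0.915 with GFP RNA (difference 2.78, standard error 0.17, limma adjusted p = 0.0016). The phosphodiesterase PDE4B had 2.85 and 2.72 scaled TPM with DHE and at most 0.140 in the other 6 libraries, and lost its call without vehicle replicate 1 or NR4A1 replicate 2 (limma adjusted p of at most 0.053). ADORA2A, an adenosine receptor that raises cAMP, was the reverse: 1.66 and 1.48 scaled TPM with DHE, 1.72 and 1.89 with vehicle, 5.64 and 5.34 with NR4A1 RNA and 1.88 and 1.82 with GFP RNA (difference -1.51, standard error 0.16, limma adjusted p = 0.0049).

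Some receptors and signal proteins of cytokines also rose with DHE and were not called with NR4A1 RNA. Of 29 tested cytokine and growth factor receptors 8 were called higher and 2 lower (median 0.29), beside 8.03% and 10.9% of all genes, and 4 of the 8 kept their call without GFP replicate 1 and DHE replicate 2. Without vehicle replicate 1 or NR4A1 replicate 1, 3 were called higher. CRLF2, the receptor chain for thymic stromal lymphopoietin (TSLP), stood at 12.4 and 10.9 scaled TPM with DHE, 0.222 and 0.11 with vehicle, 0.529 and 0.680 with NR4A1 RNA and 0.476 and 0.194 with GFP RNA (difference 3.77, standard error 0.33, limma adjusted p = 0.0030). STAT4, which carries the signal of interleukin-12, stood at 18.0 and 15.9 scaled TPM with DHE, 0.351 and 0.254 with vehicle, 0.624 and 0.786 with NR4A1 RNA and 0.334 and 0.358 with GFP RNA (difference 3.93). In both genes the DHE libraries were the sole ones above 1 TPM. The interleukin-10 receptor chain IL10RA stood at 10.6 and 9.23 scaled TPM with DHE, 1.41 and 1.48 with vehicle, 3.24 and 3.30 with NR4A1 RNA and 2.14 and 2.10 with GFP RNA (difference 1.90). IL3RA, the alpha chain of the interleukin-3 receptor (CD123) carried by AML blasts, differed by 1.36, with a log2 change of 0.78 with DHE and -0.58 with NR4A1 RNA, just under the fold used for a call. FLT3, the receptor tyrosine kinase often mutated in AML, was lower, at 53.2 and 48.0 scaled TPM with DHE, 98.0 and 97.6 with vehicle, 97.7 and 92.5 with NR4A1 RNA and 84.2 and 95.1 with GFP RNA (difference -1.03, standard error 0.12, limma adjusted p = 0.0061).

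Some surface and secreted proteins of monocytes and macrophages were called higher in the difference, where 8.03% of all genes were called higher and 10.9% lower. Of 20 tested genes of that list 7 were called higher and 1 lower, 12 had a positive and 8 a negative value (median 0.41), and all 8 called genes kept their call without GFP replicate 1 and DHE replicate 2. When each library was left out in turn, 4 to 9 were called higher, fewest without vehicle replicate 1, vehicle replicate 2 or NR4A1 replicate 1. From the list of costimulatory proteins, CD86, a ligand of CD28, had 15.4 and 13.8 scaled TPM with DHE, 0.398 and 0.469 with vehicle, 1.33 and 1.22 with NR4A1 RNA and 0.757 and 0.565 with GFP RNA (difference 3.40, standard error 0.21, limma adjusted p = 0.0016). FCGR2A, an Fc receptor for IgG, stood at 52.4 and 49.4 scaled TPM with DHE, 16.3 and 15.4 with vehicle, 11.9 and 12.1 with NR4A1 RNA and 14.6 and 14.9 with GFP RNA (difference 1.94). CD36, a scavenger receptor for lipids, stood at 14.4 and 12.1 scaled TPM with DHE, 4.55 and 4.22 with vehicle, 3.33 and 3.32 with NR4A1 RNA and 4.55 and 5.55 with GFP RNA (difference 2.02). In both genes the NR4A1 libraries were the lowest of the 8. THBS1, thrombospondin 1, had 8.19 and 9.75 scaled TPM with DHE and at most 0.158 in the other libraries. TREM1 and TREM2, related receptors of myeloid cells that signal through TYROBP, lay on opposite sides. TREM1 had a difference of 3.11 (3.88 and 3.26 scaled TPM with DHE and at most 0.640 in the other 6 libraries). TREM2 had a difference of -2.36 (standard error 0.13, limma adjusted p = 0.0014), at 12 and 12.2 scaled TPM with DHE, 1.49 and 1.69 with vehicle, 56.9 and 58.1 with NR4A1 RNA and 1.25 and 1.51 with GFP RNA, so both treatments raised it and the receptor raised it further.

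Among single genes with large values were enzymes of polyamine turnover and a ferritin chain. SMOX, spermine oxidase, stood at 34.9 and 37.5 scaled TPM with DHE, 2.02 and 1.49 with vehicle, 5.55 and 4.94 with NR4A1 RNA and 3.32 and 3.0 with GFP RNA (difference 3.38, standard error 0.19, limma adjusted p = 0.0014). SAT1, the acetyltransferase that starts polyamine breakdown, stood at 63.1 and 50.5 scaled TPM with DHE, 6.72 and 7.41 with vehicle, 19.2 and 18.6 with NR4A1 RNA and 9.52 and 11.3 with GFP RNA (difference 2.08). ODC1, which makes polyamines, moved the opposite way, at 28.7 and 26.5 scaled TPM with DHE, 78.4 and 78.3 with vehicle, 45.5 and 47.3 with NR4A1 RNA and 51.2 and 63.6 with GFP RNA. Its difference of -1.19 (limma adjusted p = 0.0080) reached at most an adjusted p of 0.052 when a library was left out, and lost its call without vehicle replicate 1 or NR4A1 replicate 2. FTH1, the ferritin heavy chain, stood at 748 and 1008 scaled TPM with DHE, 107 and 101 with vehicle, 146 and 152 with NR4A1 RNA and 252 and 152 with GFP RNA (difference 3.45, standard error 0.35, limma adjusted p = 0.0047). Pseudogenes of FTH1 may share its reads, and its DHE and GFP replicates were unequal, with the higher value in the libraries that stand apart; without them the difference was 2.87.

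Among regulators of survival and the cell cycle, BMF, a BH3-only protein, rose with DHE, whereas BIK fell. BMF stood at 17.6 and 17.6 scaled TPM with DHE, 2.97 and 2.64 with vehicle, 6.17 and 5.12 with NR4A1 RNA and 6.99 and 6.08 with GFP RNA (difference 2.65, standard error 0.16, limma adjusted p = 0.0016), and the GFP control was above the vehicle control by 1.09. CCNG2, a cyclin of cells that leave the cycle, stood at 18.8 and 24.6 scaled TPM with DHE, 3.22 and 3.82 with vehicle, 7.08 and 7.21 with NR4A1 RNA and 5.83 and 4.48 with GFP RNA (difference 2.01). The CDK inhibitor CDKN1A (p21) stood at 58.6 and 57.6 scaled TPM with DHE, 35.9 and 35.2 with vehicle, 44.0 and 42.9 with NR4A1 RNA and 58.7 and 53.3 with GFP RNA. Its difference of 1.06 thus joined a rise of 0.70 with DHE to a change of -0.36 with NR4A1 RNA, and its DHE libraries overlapped its GFP libraries. TNF, the inflammatory cytokine, fell with DHE and stood at 2.55 and 2.45 scaled TPM with DHE, 15.3 and 15.1 with vehicle, 23.2 and 23.6 with NR4A1 RNA and 24.2 and 21.8 with GFP RNA (difference -2.42, standard error 0.10, limma adjusted p = 0.0011).

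MYC fell in both experiments and further with DHE, and the machinery that MYC is known to drive mostly fell further with the drug. MYC stood at 18.6 and 18.1 scaled TPM with DHE, 192 and 184 with vehicle, 83.4 and 86.1 with NR4A1 RNA and 166 and 155 with GFP RNA. The groups did not overlap within either experiment, and the NR4A1 libraries stayed far above the DHE libraries (difference -2.40, standard error 0.09, limma adjusted p = 9.5e-04). The list of MYC and its partners was mixed, where 8.03% of all genes were called higher and 10.9% lower. MYC itself is on that list and is among those called lower. Of 11 tested genes of the MYC network, 3 were called higher and 3 lower, of which 0 higher and 2 lower kept their call without GFP replicate 1 and DHE replicate 2 (limma).

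The genes that assemble ribosomes in the nucleolus had the largest share called lower of all 53 lists. Of 76 tested, 65 (85.5%) were called lower in the difference, beside 10.9% of all genes, with a median of -1.03. With DHE, 69 were called lower (median -1.25), and with NR4A1 RNA 7 were called lower (median -0.30). At an unadjusted limma p under 0.05, 46 were lower and 2 higher with NR4A1 RNA. Without GFP replicate 1 and DHE replicate 2, 62 of the 65 kept their call, and over the fits that left out a library between 29 and 66 were called lower, fewest without vehicle replicate 1.

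MYBBP1A, a nucleolar protein that binds MYB and takes part in ribosomal RNA processing, was measured at 10.2 and 10.2 scaled TPM with DHE, 50.3 and 45.5 with vehicle, 29.1 and 29.5 with NR4A1 RNA and 43.7 and 41.3 with GFP RNA (difference -1.65, standard error 0.10, limma adjusted p = 0.0016). UTP20, a component of the small subunit processome, stood at 6.51 and 6.62 scaled TPM with DHE, 23.1 and 23.6 with vehicle, 15.7 and 15.9 with NR4A1 RNA and 21.6 and 22.2 with GFP RNA (difference -1.30, standard error 0.08). In both genes all 4 groups were apart, in the order DHE, NR4A1, GFP and vehicle from lowest to highest. Their promoters are shown because both hold the E-box bound by MYC and MAX, CACGTG (the same letters on either strand), which stands in capitals. The sequences are from RefSeq on GRCh38.p14, from 250 bases before to 50 bases after the start of the gene, on the strand of the gene: MYBBP1A at chr17:4555335-4555634 (minus strand, E-box from position 28) and UTP20 at chr12:101279855-101280154 (plus strand, E-box from position -10, counted from the start).
MYBBP1A: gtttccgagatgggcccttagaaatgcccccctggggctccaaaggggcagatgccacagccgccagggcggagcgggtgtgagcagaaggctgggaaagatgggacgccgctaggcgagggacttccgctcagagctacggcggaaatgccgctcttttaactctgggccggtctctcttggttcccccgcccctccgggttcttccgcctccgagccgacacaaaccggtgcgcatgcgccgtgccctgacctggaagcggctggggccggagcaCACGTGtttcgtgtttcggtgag
UTP20: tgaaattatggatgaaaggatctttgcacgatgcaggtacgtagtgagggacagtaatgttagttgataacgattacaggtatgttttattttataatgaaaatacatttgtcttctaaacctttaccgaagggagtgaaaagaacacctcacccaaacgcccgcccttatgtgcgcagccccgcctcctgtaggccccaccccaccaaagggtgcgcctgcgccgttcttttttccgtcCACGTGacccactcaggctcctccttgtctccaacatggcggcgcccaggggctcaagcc

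The E-box stood in the promoter window of 24 of 64 nucleolar genes with a window in the table (37.5%), beside 10.7% of the 8568 tested genes with one and 7.43% of all 27305 promoters. It stood in 124 of 598 promoters of genes called lower with DHE only (20.7%) and in 39 of 406 of those called higher with DHE only (9.61%). For genes called with NR4A1 RNA only, it stood in 9 of 78 promoters of those higher with NR4A1 RNA (11.5%) and in 2 of 43 of those lower (4.65%). These are matches of letters, and binding was not analysed here.

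Here and below, every fit means each fit that left out a library. Other nucleolar genes called lower in every fit included NOP16 (difference -2.12) and PPAN (-1.71), both needed to make the large subunit. From the list of polymerases I and III, CD3EAP, a subunit of polymerase I (-1.80), was called lower in every fit. So were POLR1C, a subunit of both polymerases (-1.43), and GTF3A, a factor of polymerase III (-1.02). With equal totals after leaving out the listed ribosomal RNA related transcripts, POLR1C and GTF3A lost their call. In all, 30 of 73 named genes lost their call with that scaling. Those given above were CD70, CDKN1A, CREM, FLT3, IL3RA and ODC1. Those given below are ABCA1, AHNAK, ANXA11, CALR, CD83, CDK6, CENPE, CXCR4, EPHB4, F3 and HSP90AB1. So are HSPE1, IRF8, IRF9, MPO, MRPL24, MRPS12, PAICS, SERPINB1, STAT2, STAT5A and XBP1. Without rescaling CDK6, HSP90AB1 and STAT5A lost their call. NOP16 was called lower in both experiments, at 8.89 and 8.05 scaled TPM with DHE, 58.2 and 57.8 with vehicle, 31.1 and 31.5 with NR4A1 RNA and 45.1 and 49.4 with GFP RNA. GTF3A stood at 88.4 and 86.3 scaled TPM with DHE, 166 and 159 with vehicle, 146 and 148 with NR4A1 RNA and 125 and 145 with GFP RNA, so with NR4A1 RNA it was not below its control. Of 36 tested genes of polymerases I and III, 16 were called lower in the difference (median -0.39), and all 16 kept their call without the pair of libraries that stand apart. Leaving out a vehicle or NR4A1 library gave 6, and equal totals without the listed ribosomal RNA related transcripts gave 2.

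**Figure D4:**
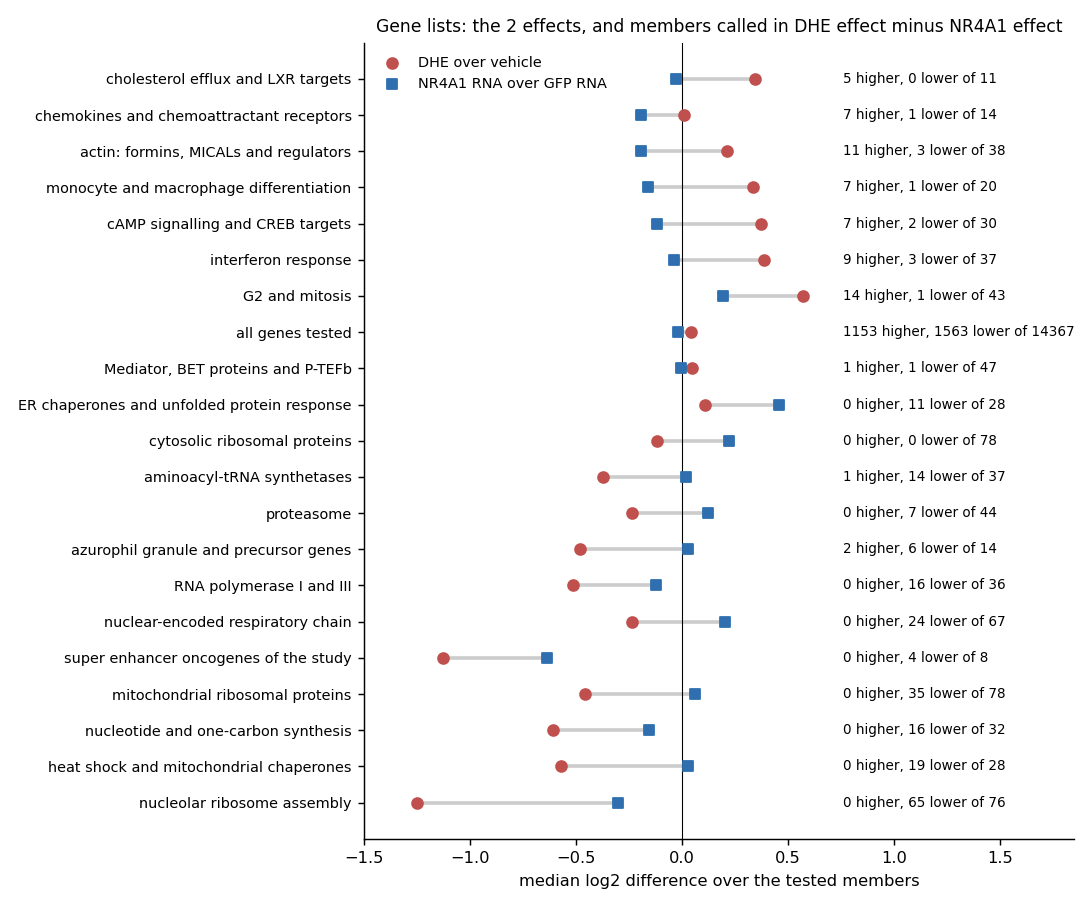
For 20 gene lists and for all genes tested, circles give the median log2 change with DHE over vehicle and squares that with NR4A1 RNA over GFP RNA, and the text at the right gives the members called in the difference. Nucleolar ribosome assembly had the lowest median with DHE (-1.25), and the endoplasmic reticulum chaperones had the highest with NR4A1 RNA (0.46).

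Nucleotide synthesis, which supplies growing cells with RNA and DNA precursors, fell with the drug. Of 32 tested genes of nucleotide and one-carbon synthesis, 16 were called lower in the difference (median -0.54), beside 10.9% of all genes. With DHE 17 were called lower. Limma called 0 with NR4A1 RNA, where 14 were lower and 3 higher at an unadjusted p under 0.05. All 16 kept their call without GFP replicate 1 and DHE replicate 2, and over the fits that left out a library between 2 and 16 were called lower, fewest without vehicle replicate 1 or NR4A1 replicate 2. DHODH, the mitochondrial enzyme of pyrimidine synthesis, stood at 3.62 and 2.85 scaled TPM with DHE, 13.8 and 14.0 with vehicle, 7.18 and 6.60 with NR4A1 RNA and 8.96 and 9.63 with GFP RNA (difference -1.55, standard error 0.16, limma adjusted p = 0.0049). PAICS, of purine synthesis, stood at 63.1 and 62.1 scaled TPM with DHE, 131 and 126 with vehicle, 104 and 104 with NR4A1 RNA and 111 and 121 with GFP RNA (difference -0.88).

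Mitochondrial proteins encoded in the nucleus followed, again beside 10.9% of all genes called lower. Of 78 mitochondrial ribosomal proteins, 35 were called lower in the difference (median -0.52), and 33 of them without GFP replicate 1 and DHE replicate 2, with MRPS12 (-1.24) and MRPL24 (-0.95) among those called in every fit. MRPS12 stood at 31.8 and 26.5 scaled TPM with DHE, 74.3 and 75.8 with vehicle, 54.9 and 55.6 with NR4A1 RNA and 55.9 and 64.1 with GFP RNA. Of 67 nuclear genes of the respiratory chain, 24 were called lower (median -0.43), of which 20 kept their call without GFP replicate 1 and DHE replicate 2. These changed little in either experiment, with a median of -0.24 with DHE and 0.20 with NR4A1 RNA, and 0 were called without vehicle replicate 1 or NR4A1 replicate 2. The count of mitochondrial ribosomal proteins without vehicle replicate 1 was 2.

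The protein-folding lists parted in different ways, beside 10.9% of all genes called lower in the difference. For the chaperones of the cytosol and mitochondria, the drug lowered and the receptor had little effect. Of 28 tested, 19 were called lower in the difference (median -0.55) and 17 of them also without GFP replicate 1 and DHE replicate 2. With DHE 13 were called lower and 2 higher. With NR4A1 RNA limma called 0, and 3 were higher and 3 lower at an unadjusted p under 0.05. HSPE1, the mitochondrial co-chaperonin, stood at 87.6 and 67.2 scaled TPM with DHE, 171 and 172 with vehicle, 131 and 129 with NR4A1 RNA and 100 and 129 with GFP RNA (difference -1.34, limma adjusted p = 0.015). HSP90AB1 stood at 518 and 475 scaled TPM with DHE, 763 and 737 with vehicle, 646 and 659 with NR4A1 RNA and 564 and 650 with GFP RNA (difference -0.70, limma adjusted p = 0.020). Both lost their call without either vehicle library and without either NR4A1 library, where the adjusted p reached 0.074 for HSPE1 and 0.098 for HSP90AB1, and in those 4 fits 0 of the 28 genes were called lower.

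For the chaperones of the endoplasmic reticulum, the receptor raised many members, and the drug moved fewer and in both directions. At an unadjusted limma p under 0.05, 20 were higher and 1 lower with NR4A1 RNA, and 7 higher and 4 lower with DHE. Of 28 tested, 8 were called higher with NR4A1 RNA (median 0.46), 1 higher and 2 lower with DHE (median 0.11), and 11 lower in the difference (median -0.31), of which 10 kept their call without the pair of libraries that stand apart. Leaving out a vehicle or NR4A1 library gave 4 called lower, and the other fits that left out a library gave at most 13. HERPUD1, a membrane protein of the degradation pathway there, stood at 33.5 and 35.0 scaled TPM with DHE, 27.8 and 26.9 with vehicle, 79.6 and 82.0 with NR4A1 RNA and 24.2 and 22.2 with GFP RNA (difference -1.46, standard error 0.09, limma adjusted p = 0.0016). DNAJB9, a co-chaperone of HSPA5, stood at 3.20 and 2.79 scaled TPM with DHE, 2.76 and 3.14 with vehicle, 8.55 and 9.07 with NR4A1 RNA and 2.71 and 2.94 with GFP RNA (difference -1.47). The NR4A1 libraries of both genes stood far above the other 6. SDF2L1, a partner of that co-chaperone family, stood at 10.4 and 12 scaled TPM with DHE, 16.5 and 16.2 with vehicle, 23.3 and 25.3 with NR4A1 RNA and 12.7 and 12.8 with GFP RNA (difference -1.43), and so lay below vehicle with DHE.

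HSPA5 (BiP), the main chaperone of that compartment, was not called in the difference, with 0.30 (95% interval -0.62 to 1.22, limma adjusted p = 0.60), and stood at 29.4 and 48.3 scaled TPM with DHE, 27.6 and 25.6 with vehicle, 45.2 and 48.4 with NR4A1 RNA and 49.5 and 33.3 with GFP RNA. Its higher DHE and GFP values were those of DHE replicate 2 and GFP replicate 1, and without them the difference was -0.34. ERN1 (IRE1), the sensor of misfolded protein that splices the RNA of XBP1, rose in both experiments by 1.32 with DHE and 1.58 with NR4A1 RNA, and its difference was -0.26 (95% interval -0.91 to 0.39). XBP1, the transcription factor that raises these chaperones, was lower with DHE, at 82.7 and 74.4 scaled TPM, against 158 and 161 with vehicle, and stood at 204 and 209 with NR4A1 RNA and 190 and 185 with GFP RNA (difference -1.16, standard error 0.10, limma adjusted p = 0.0029). Gene level TPM do not separate the spliced form of XBP1. Its promoter is shown because it holds the endoplasmic reticulum stress element (ERSE), CCAAT and CCACG with 9 bases between them, searched on both strands, in capitals from position -52 (RefSeq, GRCh38.p14, chr22:28800520-28800819, minus strand).
XBP1: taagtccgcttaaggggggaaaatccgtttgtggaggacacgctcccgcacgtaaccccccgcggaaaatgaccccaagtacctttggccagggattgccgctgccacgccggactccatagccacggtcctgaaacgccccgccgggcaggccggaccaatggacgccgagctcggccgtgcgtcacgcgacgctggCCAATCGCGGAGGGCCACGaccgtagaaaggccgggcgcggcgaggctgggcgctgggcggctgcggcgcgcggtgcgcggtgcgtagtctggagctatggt

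The ERSE stood in 7 of the 25 promoters of that list that the table holds (28%), beside 0.163% of the tested genes and 0.0806% of all promoters (22 of 27305). Of the members named here as called in every fit it stood in XBP1, and CALR, which also held it, was lower with DHE and lost its call in the difference (-0.70) in each fit that left out a vehicle, NR4A1 or GFP library, with a limma adjusted p of at most 0.15.

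**Figure D5:**
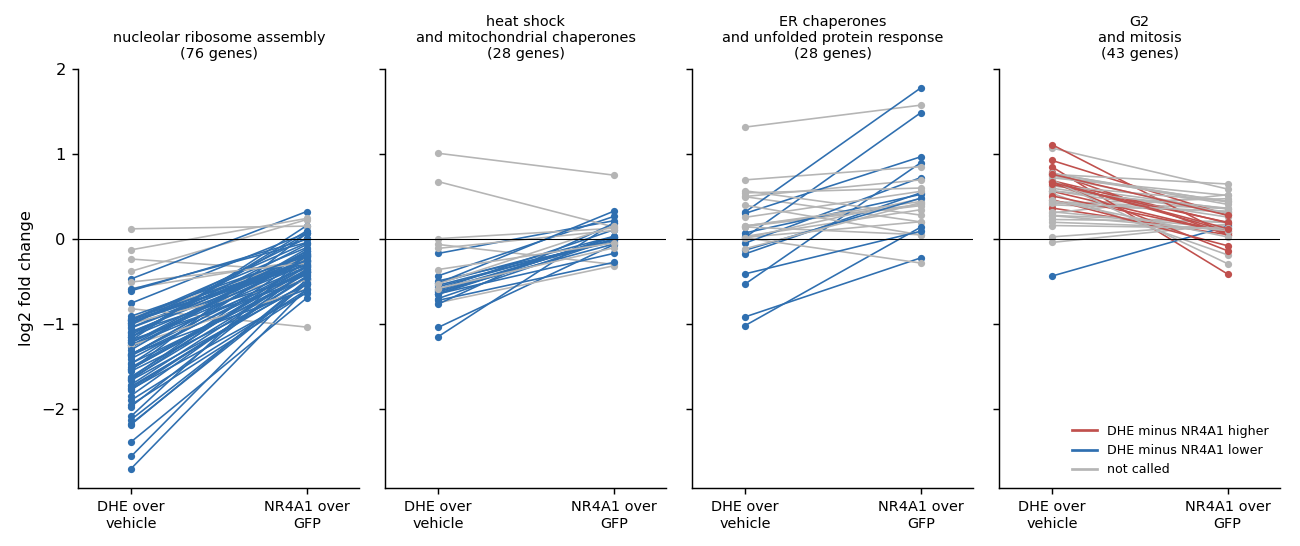
Each line is 1 tested gene and joins its log2 change with DHE over vehicle to its log2 change with NR4A1 RNA over GFP RNA, in 4 lists, coloured by the call in the difference. Nucleolar genes were low with DHE, with 65 of 76 called lower, the endoplasmic reticulum list lay higher with NR4A1 RNA, with 11 of 28 called lower, and in G2 and mitosis 14 of 43 were called higher.

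Of the 190 genes called with NR4A1 RNA and in the difference but not with DHE, 118 were higher with NR4A1 RNA and 72 lower. Without GFP replicate 1 and DHE replicate 2, 100 of the 118 and 50 of the 72 kept their call in the difference. ENO3, the muscle enolase, stood at 3.15 and 3.35 scaled TPM with DHE, 2.07 and 2.54 with vehicle, 29.5 and 30.2 with NR4A1 RNA and 2.99 and 1.62 with GFP RNA (difference -3.06, standard error 0.33, limma adjusted p = 0.0051). TUBA8, an alpha tubulin, stood at 12.4 and 8.69 scaled TPM with DHE, 11.1 and 12 with vehicle, 59.4 and 62.4 with NR4A1 RNA and 8.72 and 10.2 with GFP RNA (difference -2.78, standard error 0.23, limma adjusted p = 0.0029). ETV4, an ETS family transcription factor, stood at 4.46 and 4.64 scaled TPM with DHE, 4.38 and 4.00 with vehicle, 17.8 and 18.5 with NR4A1 RNA and 6.30 and 5.94 with GFP RNA (difference -1.39). In all 3 genes the NR4A1 libraries stood well above the rest, and the DHE and vehicle libraries lay within the same range or close to it. STAT5A, a transcription factor of cytokine signals, stood at 16.8 and 18.3 scaled TPM with DHE, 13.9 and 12.6 with vehicle, 29.2 and 30.2 with NR4A1 RNA and 11.4 and 12.4 with GFP RNA (difference -0.90, limma adjusted p = 0.0079), and lost its call without vehicle replicate 1 or NR4A1 replicate 2 (adjusted p of at most 0.052).

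The NBRE, the motif AAAGGTCA to which NR4A1 binds as a monomer, searched on both strands, stood in 4 of the 78 promoters of genes higher with NR4A1 RNA only (5.13%), beside 0.747% of the tested genes and 1.21% of all promoters. In those lower with NR4A1 RNA only it stood in 0 of 43. ANXA11, a calcium-dependent phospholipid-binding protein named here after its values were seen, was 1 of the 4. It stood at 64.0 and 69.2 scaled TPM with DHE, 64.1 and 60.4 with vehicle, 112 and 115 with NR4A1 RNA and 54.8 and 56.8 with GFP RNA (difference -0.92, standard error 0.09, limma adjusted p = 0.0046). Both NR4A1 libraries were above the other 6. Whether NR4A1 binds there was not tested.

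Genes that NR4A1 RNA lowered and DHE did not included receptors of the cell surface. CXCR4, the chemokine receptor that holds leukaemic cells in the bone marrow, stood at 53.2 and 50.3 scaled TPM with DHE, 51.5 and 51.5 with vehicle, 24.4 and 24.4 with NR4A1 RNA and 43.5 and 48.4 with GFP RNA (difference 0.90, standard error 0.10, limma adjusted p = 0.0054). F3, tissue factor, the trigger of blood clotting, stood at 35.6 and 34.2 scaled TPM with DHE, 32.7 and 32.0 with vehicle, 16.8 and 16.6 with NR4A1 RNA and 35.1 and 36.2 with GFP RNA (difference 1.18, standard error 0.08, limma adjusted p = 0.0018). EPHB4, an ephrin receptor, stood at 13.8 and 13.7 scaled TPM with DHE, 11.6 and 12.5 with vehicle, 6.86 and 5.85 with NR4A1 RNA and 13.4 and 12.3 with GFP RNA (difference 1.15). In each of these the NR4A1 libraries stood alone below the other 6. AHNAK, a large scaffold protein, had its lowest values with NR4A1 RNA too, at 52.5 and 55.3 scaled TPM with DHE, 38.0 and 38.4 with vehicle, 30.5 and 31.3 with NR4A1 RNA and 59.7 and 54.3 with GFP RNA (difference 1.36), and its GFP libraries lay above its vehicle libraries by 0.57 (limma adjusted p = 0.062).

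Where both treatments moved a gene the same way and the difference was called, DHE usually moved falling genes further. Of the 98 such genes, 54 fell in both and further with DHE, and 3 fell further with NR4A1 RNA. Among genes that rose in both, 23 rose further with DHE and 18 further with NR4A1 RNA. Without GFP replicate 1 and DHE replicate 2, 51 of the 54, 2 of the 3, 16 of the 23 and 16 of the 18 kept their call. BCL2, the anti-apoptotic protein, was among the falls, at 4.00 and 4.41 scaled TPM with DHE, 20.9 and 20.9 with vehicle, 13.3 and 12.8 with NR4A1 RNA and 20.9 and 21.0 with GFP RNA (difference -1.52, standard error 0.10, limma adjusted p = 0.0016). The controls were alike and the DHE libraries were lowest. CD83, a surface protein of maturing dendritic cells, rose further with NR4A1 RNA, at 18.7 and 16.6 scaled TPM with DHE, 5.49 and 5.62 with vehicle, 44.1 and 41.9 with NR4A1 RNA and 7.11 and 7.72 with GFP RNA. Its difference of -0.88 (limma adjusted p = 0.0083) lost the call without vehicle replicate 1, vehicle replicate 2 or NR4A1 replicate 1 (adjusted p of at most 0.053).

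DHE and NR4A1 RNA shared a called direction for 328 genes, and 230 of these were not called in the difference. For them the interval bounds how far the effects may part. P2RY2, a nucleotide receptor, stood at 10.1 and 12 scaled TPM with DHE, 31.8 and 32.3 with vehicle, 11.3 and 11.9 with NR4A1 RNA and 35.9 and 29.1 with GFP RNA. The difference was -0.06 (95% interval -0.49 to 0.37, limma adjusted p = 0.83). PECAM1 (CD31), an adhesion molecule of leukocytes and endothelium, stood at 82.8 and 91.5 scaled TPM with DHE, 18.6 and 15.5 with vehicle, 78.5 and 90.6 with NR4A1 RNA and 23.5 and 18.9 with GFP RNA. Its DHE and NR4A1 libraries overlapped, and the difference was 0.35 (95% interval -0.15 to 0.85, limma adjusted p = 0.26). MYB, the transcription factor of blood progenitors, fell by 0.68 with DHE and had a change of -0.54 with NR4A1 RNA, which was short of the fold used for a call, with a difference of -0.13 (95% interval -0.35 to 0.09, limma adjusted p = 0.33).

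P2RY2 and MYB belong to a list made here of 8 genes that the study names at super enhancers. The study named them with these samples in hand, and their direction is therefore no independent evidence. Of the 8, 4 were called lower in the difference (MYC, BCL2, IRF8 and CDK6), all of which kept their call without GFP replicate 1 and DHE replicate 2, with a median of -0.44. CDK6, a kinase of G1 entry, stood at 49.8 and 50.8 scaled TPM with DHE, 96.9 and 97.7 with vehicle, 78.9 and 81.3 with NR4A1 RNA and 89.2 and 96.5 with GFP RNA (difference -0.73, standard error 0.09, limma adjusted p = 0.0062). IRF8, a factor of monocyte and dendritic cell development, had a difference of -0.70 (limma adjusted p = 0.014) and lost its call without either vehicle library or either NR4A1 library (adjusted p of at most 0.077). MEF2D and ETV6 were not called, at -0.02 (95% interval -0.88 to 0.83) and -0.18 (95% interval -0.76 to 0.41). Without the libraries that stand apart MEF2D had a difference of -0.62 (limma adjusted p = 0.013) and ETV6 of -0.57 (limma adjusted p = 0.037), both called. The genes of Mediator, BET proteins and P-TEFb, which occupy such enhancers, had 1 called higher and 1 lower of 47 tested, with a median of -0.04 beside 0.02 for all genes, and 2 higher and 2 lower without GFP replicate 1 and DHE replicate 2.

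Genes of G2 and mitosis had small positive differences, and how many were called depended on the scaling. Of 43 tested, 14 were called higher and 1 lower in the difference (median 0.31), beside 8.03% and 10.9% of all genes. In single experiments 21 were called higher with DHE (median 0.57) and 2 with NR4A1 RNA (median 0.19). At an unadjusted limma p under 0.05, 20 were higher and 0 lower with NR4A1 RNA. Without GFP replicate 1 and DHE replicate 2, 30 were called higher, among them 13 of the 14. Over the fits that left out a library between 1 and 18 were called higher, fewest without vehicle replicate 1, vehicle replicate 2 or NR4A1 replicate 2. The higher calls numbered 6 with upper quartile scaling, 1 without rescaling, 0 with equal totals after leaving out the listed ribosomal RNA related transcripts, and 23 with the rDNA-like transcripts also left out. CENPE, a kinesin of the kinetochore, stood at 32.1 and 31.5 scaled TPM with DHE, 14.6 and 14.3 with vehicle, 17.0 and 15.8 with NR4A1 RNA and 16.1 and 15.5 with GFP RNA, with the DHE libraries alone above the rest (difference 1.06, standard error 0.09, limma adjusted p = 0.0029).

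Some genes of the interferon response were called higher in the difference, where 8.03% of all genes were called higher and 10.9% lower. The controls were not level in this list. Of 37 tested, 9 were called higher and 3 lower in the difference (median 0.33), and 8 of the 9 and 1 of the 3 kept their call without GFP replicate 1 and DHE replicate 2. Over the fits that left out a library 3 to 9 were called higher, fewest without vehicle replicate 1, vehicle replicate 2 or NR4A1 replicate 1. The median of GFP RNA over vehicle was 0.44 in this list and 0.00 over all genes, with 1 of the 37 called (higher with GFP RNA), and the part of that gap in the difference was not tested. IRF9, a subunit of the interferon-activated factor ISGF3, stood at 9.09 and 8.84 scaled TPM with DHE, 3.88 and 3.12 with vehicle, 14.7 and 14.7 with NR4A1 RNA and 13.7 and 15.3 with GFP RNA. Its rise with DHE started from a vehicle level far below that of both electroporated groups (GFP over vehicle 1.91, limma adjusted p = 0.014), and the DHE libraries stayed below those groups. STAT2, another subunit, stood at 45.1 and 44.0 scaled TPM with DHE, 14.4 and 15.7 with vehicle, 19.9 and 19.8 with NR4A1 RNA and 18.6 and 18.1 with GFP RNA (difference 1.42, standard error 0.09, limma adjusted p = 0.0017), and so was highest with DHE. MX2, an antiviral GTPase, stood at 5.83 and 7.56 scaled TPM with DHE, 1.08 and 1.06 with vehicle, 2.05 and 1.53 with NR4A1 RNA and 1.77 and 1.90 with GFP RNA (difference 2.22).

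Some regulators of actin and of cholesterol export were called higher, where 8.03% of all genes were called higher and 10.9% lower. Of 38 tested actin regulators, 11 were called higher and 3 lower (median 0.47, and 0.26 without the libraries that stand apart, where 8 of the 11 and all 3 kept their call). Over the fits that left out a library between 2 and 18 were called higher, fewest without vehicle replicate 2 or NR4A1 replicate 2. Of 11 tested genes of cholesterol efflux, 5 were called higher (median 0.57), of which 4 kept their call without those libraries. Among these the cholesterol exporter ABCA1 stood at 1.96 and 1.92 scaled TPM with DHE, 0.927 and 1.06 with vehicle, 0.596 and 0.547 with NR4A1 RNA and 2.16 and 1.27 with GFP RNA (difference 1.73, limma adjusted p = 0.020), and it lost its call without DHE replicate 2, either vehicle library or either NR4A1 library (adjusted p of at most 0.087). Over the fits that left out a library between 0 and 5 of the 11 were called higher, with 0 without a vehicle or NR4A1 library.

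Some granule genes of myeloid precursors were called lower, where 10.9% of all genes were called lower and 8.03% higher. Of 14 tested, 6 were called lower and 2 higher (median -0.38), and 5 and 2 kept their call without GFP replicate 1 and DHE replicate 2. Leaving out each library in turn gave 0 to 8 called lower, with 0 without vehicle replicate 1, vehicle replicate 2 or NR4A1 replicate 2. SERPINB1, an inhibitor of the granule proteases, was higher, at 98.2 and 92.3 scaled TPM with DHE, 25.6 and 24.3 with vehicle, 37.3 and 36.9 with NR4A1 RNA and 25.6 and 25.0 with GFP RNA (difference 1.37, standard error 0.09, limma adjusted p = 0.0016). MPO, the myeloperoxidase of those granules, had a difference of -0.65 (limma adjusted p = 0.0099) and lost its call without either vehicle library or either NR4A1 library (adjusted p of at most 0.064).

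Some lists that share a direction held no called gene. Of 78 cytosolic ribosomal proteins, limma called 0 in the difference, although 77 had a negative value (median -0.34) and 21 were lower at an unadjusted p under 0.05. Without GFP replicate 1 and DHE replicate 2, 25 were called lower and the median was -0.14. The 13 genes encoded by the mitochondrial genome had a median difference of 1.69, with 0 called by limma and 2 higher and 1 lower at an unadjusted p under 0.05, and the median was 0.28 without these libraries. Those genes made up 0.462% of the TPM in DHE replicate 2 and 0.594% in GFP replicate 1, against 0.244 to 0.362% in the other 6 libraries.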

How the data were processed

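RNA-seq libraries of MOLM-14 cells (8 libraries, 2 in each of 4 groups) were analysed as TPM, which the authors estimated with Salmon 0.11.0 on human Gencode transcripts after trimming with Trim Galore, and deposited per gene symbol for each library. The release is uncertain, since the sources differ on it. TPM keep no read counts, so the depth is unknown and no count model was used. Ribosomal RNA removal may be uneven between libraries and changes every other gene's TPM. In addition, 1449 symbols stood more than once in the table, and the introduced NR4A1 RNA is counted with the cell's own. Fold changes and p-values from the authors' DESeq2 comparisons, and 2 further sheets with rows chosen on them, were not used. The ChIP-seq samples were not analysed here, and some items are not reported here.

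Libraries were rescaled by the median of ratios, and limma 3.58.1 (R 4.3.3) was fitted to log2(TPM + 0.5) as 4 group means with an intensity trend over the 14367 genes with at least 1 TPM in 2 libraries. Tests were two-sided with Benjamini-Hochberg adjustment over all genes tested. The fit had 4 residual degrees of freedom. A call in the difference needed an adjusted p under 0.05, and a call in one experiment also more than 1.5-fold. Scaled TPM are the rescaled values. The procedure was tested on simulated data.

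The members and the 53 gene lists were chosen with earlier results of these data known. Named genes were the most positive and most negative differences that were also called without GFP replicate 1 and DHE replicate 2, genes called in opposite directions, genes called in the same direction by kind, genes called with NR4A1 RNA only, the 4 called genes with the lowest p in each list, and genes that the study names. Outside this rule, ANXA11, CALR, ERN1, HSPA5 and TREM1 were named after their values were seen. Alternatives were other scalings, pseudocounts, filters, variance options, a replicate block, and leaving out libraries. The scaling that also leaves out rDNA-like transcripts was added after seeing the data. Promoter windows were matched by symbol to a RefSeq table (GRCh38.p14), which held 8568 of the tested genes.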

Additional observations from a re-analysis of the deposited data

Results flagged for a closer look

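NR4A3, an orphan nuclear receptor of the NR4A1 family, was listed below the 1 TPM at which genes were tested and so entered no comparison. Its deposited TPM averaged 0.225 in the DHE libraries (0.191 and 0.258), against 0.00492 and 0.00665 in the vehicle libraries, and it stood at 0.0196 and 0.0173 in the NR4A1 libraries, against 0.0762 and 0.0797 in the GFP libraries. It was singled out because its DHE values lay above both vehicle values, and no test was run on it.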

How the results depend on the processing

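The count of genes called was the least stable result. At an adjusted p under 0.01, 196 genes were called higher and 385 lower. Without rescaling 388 were called higher and 531 lower, with 454 called for NR4A1 RNA against GFP RNA, and with equal totals after leaving out the listed ribosomal RNA related transcripts the counts were 107, 146 and 289. Upper quartile scaling called 728 higher. Without a filter on low values 1023 were called lower. The labels do not say whether replicate numbers pair the libraries. Deviations of same-numbered libraries from their group means correlated at 0.055 for DHE with vehicle and at 0.067 for NR4A1 with GFP over 8961 genes. These values cannot decide it, since DHE replicate 2 and GFP replicate 1 stood apart from their partners. A replicate block within each experiment called 272 higher and 458 lower, and 197 for NR4A1 RNA. Leaving out each library in turn gave 146 to 1939 genes higher, 246 to 2318 lower, and 89 to 1492 for NR4A1 RNA. Where leaving out a library leaves a group with 1, that library was assumed to vary like the other groups. The cause of these shifts was not tested. The named genes counted next are a part of those that the naming rule gave. They leave out SLX1A, and also PRDM1, IL7R and MXD1, which lost their call without GFP replicate 1 and DHE replicate 2. Of these 73 genes called in the difference, all 73 kept their call with upper quartile scaling and 66 with the replicate block. With equal totals after leaving out the listed ribosomal RNA related transcripts 43 kept it, and none reversed its direction in an alternative that was run. Some of the 73 were chosen because they were called without GFP replicate 1 and DHE replicate 2, so that fit is no test of them. With 2 libraries a group and an unknown depth, a gene that was not called is not shown to respond alike to both treatments.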
